A study of Sus scrofa with 180 samples.

Results

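AQP4, CAV3 and CDH2 encode 3 proteins of the sarcolemma, the plasma membrane of the muscle fibre, and their transcripts are described here in 2 muscles of 90 pigs, Longissimus (LM) and Semimembranosus (SM). They were chosen by name, and each was read by 1 probe of a pig skeletal muscle microarray, so they are 3 of the 3481 genes named on this array by the lists used here and 3 of the 10987 array features tested. LM lies along the back and SM in the ham, and both were taken from each carcass soon after exsanguination, and RNA of each muscle was hybridized to an array of its own with 1 dye (Cy3), which gave 90 LM and 90 SM arrays. The pigs were unmodified domestic pigs of half-sib families, bred over successive generations from a Pietrain type sire line and a synthetic line with Duroc, Large White and Hampshire founders. All carried the wild type alleles at the HAL and RN loci that alter pig meat, and neither muscle received any treatment. The labels give the muscle, the pig and the chip (the glass slide that holds several arrays) of every array, and they give neither sex nor age. The samples came from the superficial part of each muscle, each muscle was collected throughout by a single operator, and pigs of 1 family share a parent, so pigs are not fully independent of each other.

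AQP4 is a water channel. In skeletal muscle it lies in the sarcolemma, mainly of fast fibres, where it is held by syntrophin, a part of the dystrophin complex that links the membrane to the cytoskeleton, and it is also a main water channel of astrocytes in the brain. CAV3 is the caveolin of muscle, the coat protein of caveolae, small invaginations of the sarcolemma that buffer membrane tension and gather signalling proteins. CDH2 is N-cadherin, a calcium-dependent adhesion protein that joins cells through catenins and that is best known in muscle from myoblasts, from satellite cells in their niche and from nerve and vessel cells. In bulk tissue, fewer cells that express a gene and less RNA in each cell cannot be told apart.

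The probes are shown because every value below is the signal of 1 such oligonucleotide of 60 bases, and because an index of the probes rich in C near their start, their level minus that of probes poor in C, differed between the muscles, with a mean of −0.37 ± 0.34 (SD, n = 90) over LM arrays and 0.38 ± 0.31 (SD, n = 90) over SM arrays. The array's design gives them, 5′ to 3′, as follows, with each C among the first 15 bases in capitals.
AQP4: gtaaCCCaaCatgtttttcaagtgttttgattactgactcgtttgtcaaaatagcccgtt
CAV3: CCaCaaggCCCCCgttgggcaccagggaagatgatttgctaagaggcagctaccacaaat
CDH2: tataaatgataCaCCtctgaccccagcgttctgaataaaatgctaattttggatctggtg
The CAV3 probe had 8 such C and a GC content of 55.0%, and 1.57% of all features had 8 or more. The AQP4 and CDH2 probes had 4 and 3 such C, near the median of 3 over all features, with GC contents of 36.7% and 38.3% against a median of 45%. In the pig gene annotation of Sscrofa11.1, AQP4 and CDH2 lie on the same chromosome with 1 protein-coding gene, CHST9, between them, and CAV3 lies on another. The files name no genome build for the probes, so no coordinates are given.

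Before the results, some facts of the series bear on all of them. LM arrays lay on 21 chips scanned on 10 days and SM arrays on 14 other chips scanned on 5 other days, so chip, scan day and muscle cannot be told apart. The median processed signal (brightness after background subtraction) of an array ranged from 171 to 304 in LM and from 105 to 252 in SM. The share of features read well above background ranged from 69.2% to 99.9% in LM and from 63.4% to 83.3% in SM. Values below are the log2 processed signal minus the array's median, called the centred log2 level. Levels are compared between arrays for the same probe, never between probes. The centred log2 level of the myosin heavy chain gene MYH1 was 8.29 ± 0.20 over LM arrays (SD, n = 84) and 8.86 ± 0.19 over SM arrays (SD, n = 90).

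The AQP4 probe was dim and varied widely. In LM its processed signal ran from 8.64 through a median of 99.5 to 239, and in SM from 33.2 through 243 to 687. On 16 of the 90 LM arrays, spread over 12 chips, the spot was not well above background, and on no SM array. Among the 74 LM arrays with a usable spot, the centred log2 level of AQP4 was lowest at −3.97, had a median of −2.22 and was highest at −0.98. In SM, with 90 arrays, it was lowest at −4.03, had a median of −0.74 and was highest at 0.67. The ranges overlapped widely, and the lowest SM level stood apart from the next, −2.78. No LM array reached the SM median, and 58 of the 90 SM arrays lay above the highest LM level.

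CAV3 was above background on every array and about as even between pigs as a typical feature. Its processed signal ran from 2598 through a median of 4431 to 6357 in LM and from 3404 through 6076 to 8746 in SM. In LM 1 value, 1.98, was removed because it lay over 3 SD below the probe's mean over both muscles. The centred log2 level of CAV3 in LM was lowest at 2.14, had a median of 3.12 and was highest at 3.73 (n = 89). In SM it was lowest at 2.80, had a median of 3.81 and was highest at 4.48 (n = 90). The ranges overlapped, with 56 SM arrays above the highest LM level and 10 LM arrays below the lowest SM level, 1 SM array below the LM median and no LM array above the SM median.

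CDH2 was read near background in LM. Its processed signal ran from 10.3 through a median of 43.4 to 114 in LM and from 27.1 through 61.7 to 754 in SM, and 15 LM spots and 1 SM spot did not rise well above background. In LM its centred log2 level was lowest at −4.19, had a median of −3.48 and was highest at −2.38 (n = 74). In SM it was lowest at −3.66, had a median of −2.77 and was highest at −1.03 (n = 87). The 2 SM values at 0.47 and 0.07 were removed because they lay over 3 SD above the probe's mean over both muscles. The groups overlapped, since 17 SM arrays lay above the highest LM level and 26 LM arrays lay below the lowest SM level.

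**Figure D1:**
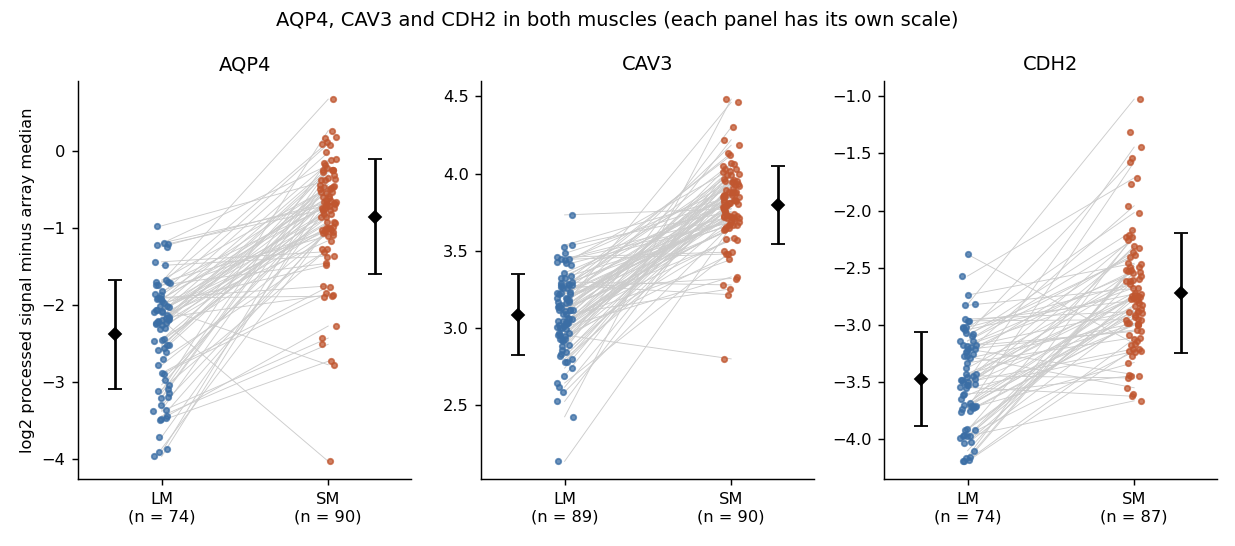
Centred log2 level (log2 processed signal minus array median) of AQP4, CAV3 and CDH2 on each LM and SM array. Points are arrays, grey lines join the muscles of the same pig, diamonds with bars are means with SD, and each panel has its own scale; the SM points lie mostly above the LM points of the same pig, in 72 of 74 pigs for AQP4, 86 of 89 for CAV3 and 66 of 71 for CDH2.

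All 3 genes had a higher mean in SM. The probes were named from the study's lists of probes called different between these muscles on these same arrays, so their direction is not independent evidence, and the following values are a description. The mean centred log2 level of AQP4 was −2.39 ± 0.70 over LM arrays (SD, n = 74) and −0.86 ± 0.74 over SM arrays (SD, n = 90). LM minus SM was −1.53 (SE 0.11), an SM to LM ratio (FC ratio) of 2.89, with an adjusted p of 4.29e-28 by limma. CAV3 had means of 3.09 ± 0.26 in LM (SD, n = 89) and 3.80 ± 0.25 in SM (SD, n = 90), a difference of −0.71 (SE 0.04) and an FC ratio of 1.63, with an adjusted p of 3.09e-42. CDH2 had means of −3.47 ± 0.41 in LM (SD, n = 74) and −2.72 ± 0.53 in SM (SD, n = 87), a difference of −0.75 (SE 0.07) and an FC ratio of 1.68, with an adjusted p of 3.12e-18. All 3 of 3 were called higher in SM, where 47.7% of all features tested were called higher in SM, and the median LM minus SM over all features was −0.07. The AQP4 and CDH2 differences leave out the dimmest LM spots, and with those spots kept they were −1.90 and −0.84. With normexp background correction they were −1.01 and −0.48, and with quantile normalization the CDH2 difference was −1.27. The fit held muscle only and took arrays as independent, leaving out pig, chip and scan day. With scan day as a random block the adjusted p by limma was 3.86e-14 for AQP4, 1.50e-21 for CAV3 and 3.38e-08 for CDH2.

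Pigs differed in the size of the difference between their muscles. For AQP4 the LM minus SM difference within a pig ran from −3.53 through a median of −1.41 to 1.84, with an SD of 0.96 over 74 pigs. The pig at 1.84 was the one with the very low SM level. For CAV3 it ran from −2.05 through −0.68 to 0.15, with an SD of 0.39 over 89 pigs. For CDH2 it ran from −2.15 through −0.78 to 0.78, with an SD of 0.58 over 71 pigs.

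For AQP4 the size also differed with a feature of the labels. The labels name 69 pigs by a number and 21 by the letter M and a number, without saying what the letter stands for, and this split was seen after the values. In SM the 6 lowest AQP4 levels all belonged to pigs with the letter, and the lowest of the other pigs was −1.90. AQP4 in SM was −1.45 ± 1.06 (SD, n = 21) in the pigs with the letter and −0.68 ± 0.50 (SD, n = 69) in the others, while in LM the same pigs had −2.27 ± 0.81 (SD, n = 19) and −2.43 ± 0.67 (SD, n = 55). CAV3 in SM was 3.69 ± 0.31 (SD, n = 21) and 3.83 ± 0.23 (SD, n = 69), and CDH2 in SM was −2.83 ± 0.57 (SD, n = 19) and −2.69 ± 0.51 (SD, n = 68). Pigs of both kinds of label shared 7 of the 14 SM chips. In SM the fast fibre list had a mean of −0.03 ± 0.38 (SD, n = 21) in the pigs with the letter and 0.20 ± 0.34 (SD, n = 69) in the others, the slow fibre list 0.11 ± 0.32 and 0.04 ± 0.33, and the array median over the probes that passed the filter 8.88 ± 0.19 and 8.67 ± 0.28 on the log2 scale. The part of these in the lower AQP4 was not tested. The LM minus SM difference of AQP4 within a pig averaged −0.78 ± 1.01 (SD, n = 19) with the letter and −1.72 ± 0.81 (SD, n = 55) without it, that of CAV3 −0.52 ± 0.38 (SD, n = 20) and −0.76 ± 0.38 (SD, n = 69), and that of CDH2 −0.76 ± 0.70 (SD, n = 16) and −0.79 ± 0.55 (SD, n = 55). These differences between kinds of label were not tested. Both pigs with AQP4 higher in LM and all 3 with CAV3 higher in LM had the letter. Among pigs with a number only, AQP4 was higher in SM in 55 of 55, CAV3 in 69 of 69 and CDH2 in 52 of 55.

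The genes that work with them did not all take the same side. These lists hold only genes that the same lists of called probes name, so that a gene is called was fixed by the choice, only its side could vary, and their counts are a description as well. Of all features tested, 47.7% were called on the SM side and 35.7% on the LM side, and of the 3967 named features 50.4% and 47.6%. The list of probes called higher in SM was held only in part, so genes higher in SM could go unnamed more often than genes higher in LM. Of the aquaporins, 3 of 10 genes were named, AQP1, AQP3 and AQP4, and all were higher in SM. AQP1, the water channel of endothelium and red cells, had a difference of −0.40 (SE 0.12, adjusted p = 0.00107 by limma), and AQP3, which also passes glycerol, had −0.49 (SE 0.09, adjusted p = 1.54e-07), so the gap of AQP4 was the widest of these 3. Where a gene had several probes, the probe with the smallest p is given. Of the dystrophin complex, to which AQP4 is anchored, 5 of 15 genes were named and all 5 were higher in LM, the opposite side to AQP4. DMD, which encodes dystrophin, had a difference of 0.91 (SE 0.04, adjusted p = 1.83e-50), the sarcoglycans SGCB and SGCD had differences of 0.59 and 0.37, and SSPN, sarcospan, had 0.31. The syntrophins, which bind AQP4, were not among the genes named.

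Of the caveolar genes, 6 of 13 were named, with 4 higher in SM and 2 higher in LM. PRKCDBP, a cavin, had a difference of −1.07 (SE 0.07), EHD2, an ATPase at the neck of caveolae, had −0.93 (SE 0.04), and FLOT2, a flotillin of membrane rafts, had −0.78 (SE 0.07), all on the side of CAV3. MURC, the cavin of muscle, had 0.41 (SE 0.05) and CAV2, a caveolin of many cell types, had 0.12 (SE 0.05, adjusted p = 0.0194 by limma), so the muscle cavin and the muscle caveolin lay on opposite sides. Of the cadherins and catenins, 7 of 15 were named, with 6 higher in SM and 1 higher in LM. CDH3, P-cadherin, had −0.42 (SE 0.09), CDH5, the cadherin of endothelium, had −0.58 (SE 0.05), CDH13, a cadherin without a cytoplasmic part, had −0.49 (SE 0.04), and CTNNAL1, an alpha-catenin-like gene, had 0.46 (SE 0.04). Of the other transporters of the sarcolemma, 5 of 11 were named, all higher in SM. Among them the potassium channel subunit KCNJ11 had −0.47 (SE 0.04), and SLC2A4, the insulin-regulated glucose transporter GLUT4, had −0.42 (SE 0.04). List medians of LM minus SM were −0.49 for aquaporins, 0.37 for the dystrophin complex, −0.75 for caveolar genes, −0.55 for cadherins and catenins and −0.47 for transporters, against −0.07 over all features and −0.27 over the named ones, and since the named features were called on these arrays, nothing is read from the distance of a list from 0.

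Markers of other cell types, named from the same called lists, are given with the same shares in view, 50.4% of named features called higher in SM and 47.6% in LM. Of the endothelial markers, 4 of 6 were named and all 4 were higher in SM, and the mean of their centred values ran from −0.92 to 0.03 over LM arrays and from −0.19 to 1.59 over SM arrays. The 4 of 4 smooth muscle markers were higher in SM as well, with a list mean from −1.63 to 0.30 in LM and from −0.18 to 1.79 in SM. For nerve and glia, 3 of 6 were named and higher in SM, from −1.01 to 0.46 and from −0.33 to 0.98, and for adipocytes 2 of 4, from −2.61 to 2.62 and from −2.07 to 2.98. Of the leucocyte markers, 3 of 4 were higher in SM and 1 in LM, from −1.01 to 0.86 in LM and from −0.45 to 1.24 in SM. COL1A2, the only 1 of 5 fibroblast markers named, was higher in SM, from −3.84 to 1.27 and from −0.57 to 1.56. Of the slow fibre genes, 4 of 8 were named, 3 higher in SM and 1 in LM, from −0.86 to 0.61 in LM and from −1.08 to 0.75 in SM. Of the fast fibre genes, 3 of 9 were named, 2 higher in SM and 1 in LM, from −1.04 to 0.63 and from −1.21 to 0.80. None of the 3 satellite cell markers was named. The part of these lists in the higher SM levels of AQP4, CAV3 and CDH2 was not tested.

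Within a muscle, AQP4 was among the most variable features and CAV3 was not. The SD between pigs of AQP4 was 0.70 in LM and 0.74 in SM, higher than that of 96.7% and 98.2% of all features. The LM value leaves out 16 dim spots. In SM the SD of AQP4 was 0.50 in the pigs with a number only (n = 69) and 1.06 in those with the letter (n = 21). CAV3 had SDs of 0.26 and 0.25, at the 43.0 and 35.2 percentiles, and CDH2 had 0.41 and 0.53, at the 80.6 and 90.9 percentiles. The scanner's own error of a spot had a median of 10.0% to 15.9% of the signal for these probes, or 0.14 to 0.23 on the log2 scale, below the SD between pigs of each gene. Each muscle of a pig had an array of its own and no repeat. This SD therefore also holds variation between arrays and chips, which the scanner's error does not cover.

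Whether a gene spread more in one muscle was tested by permuting the muscles within a pig (100000 permutations, two-sided). The ratio of the LM to the SM standard deviation was 0.918 for AQP4 (n = 74, p = 0.663, adjusted p = 0.876 by permutation), 1.02 for CAV3 (n = 89, adjusted p = 0.876 by permutation) and 0.815 for CDH2 (n = 71, p = 0.137, adjusted p = 0.411 by permutation). None passed. On deviations from chip means the ratio of CDH2 was 0.654 (n = 70, p = 0.00563, adjusted p = 0.0169 by permutation), with SDs of 0.31 in LM and 0.48 in SM. Subtracting chip means lowers an SD more where fewer arrays share a chip, and LM arrays lay on 21 chips and SM arrays on 14. The ratios of AQP4 and CAV3 fell as well, to 0.857 and 0.884. This test therefore cannot decide whether CDH2 spread less in LM. For AQP4 the sign turned once dim LM spots were kept, with a log2 ratio of 0.54 (adjusted p = 0.0272 by permutation), and 0.77 with the deposited table (adjusted p = 0.00018), against −0.12 without them. Among the pigs with a number only it was 0.46 and did not pass (adjusted p = 0.138 by permutation).

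The share of the spread between chips was taken as well, and such a share is positive even where chips have no effect. In LM, chips held 26.1% of the sum of squares of AQP4, 32.7% of that of CAV3 and 39.7% of that of CDH2, against a median of 36.1% over all features. CAV3 passed the F test between LM chips (adjusted p = 0.0468 by limma) while AQP4 (adjusted p = 0.428) and CDH2 (adjusted p = 0.0577) did not, so 1 of 3 was called, where 53.6% of all features tested were called. In SM none of the 3 was called, with adjusted p values of 0.456 to 0.845 by limma and unadjusted p values all above 0.05, where 15.0% of all features tested were called. Chip means of AQP4 ran from −3.08 to −1.75 in LM and from −1.50 to −0.46 in SM, and those of CAV3 from 2.76 to 3.33 and from 3.60 to 3.95. These means cover 15 LM chips for AQP4 and CDH2, 18 LM chips for CAV3 and 13 SM chips for each gene. Among these chips, the means of AQP4 and CAV3 in LM lay below all those in SM. Chip means of CDH2 ran from −3.96 to −3.05 in LM and from −3.05 to −2.52 in SM.

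The genes were then set against each other across pigs within each muscle, which asks whether the 3 membrane genes rise and fall together. None of the 6 correlations (3 pairs in 2 muscles) passed at these settings. With normexp background correction 3 did, AQP4 and CDH2 in LM with the sign turned (r = 0.40, adjusted p = 0.00882 by permutation), CAV3 and CDH2 in LM with the sign turned (r = −0.35, adjusted p = 0.00882) and CAV3 and CDH2 in SM (r = −0.30, adjusted p = 0.0131). In LM, AQP4 and CAV3 had r = 0.21 (rho = 0.17, n = 73, p = 0.0745, adjusted p = 0.435 by permutation), AQP4 and CDH2 had r = −0.18 (rho = −0.16, n = 64, adjusted p = 0.435 by permutation), and CAV3 and CDH2 had r = 0.03 (rho = 0.04, n = 74, adjusted p = 0.815 by permutation). In SM the same pairs had r = 0.09 (rho = 0.08, n = 90), r = −0.10 (rho = 0.03, n = 87) and r = −0.11 (rho = −0.09, n = 87), each with an adjusted p of 0.462 by permutation. Adjusted p values of rho were 0.645 to 0.767. Without the 2 arrays farthest from the median of the first gene, r lay between −0.15 and 0.20.

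None passed within chips either. On deviations from chip means, AQP4 and CAV3 in LM had r = 0.27 (n = 72, p = 0.0262, adjusted p = 0.157 by permutation within chips), and the other 5 pairs had adjusted p values of 0.306 to 0.691. On deviations from scan day means, r ran from −0.18 to 0.22 with adjusted p values of 0.285 to 0.684. Among single chips with 6 or more arrays, the sign of AQP4 and CAV3 was positive on 2 of 3 LM chips and 7 of 10 SM chips. With deviations taken within each kind of pig label, r ran from −0.17 to 0.20, with adjusted p values of 0.312 to 0.928 by permutation. The difference of each correlation between the muscles was also tested, and no pair passed (adjusted p = 0.565 for all 3 by permutation of the muscles within a pig).

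**Figure D2:**
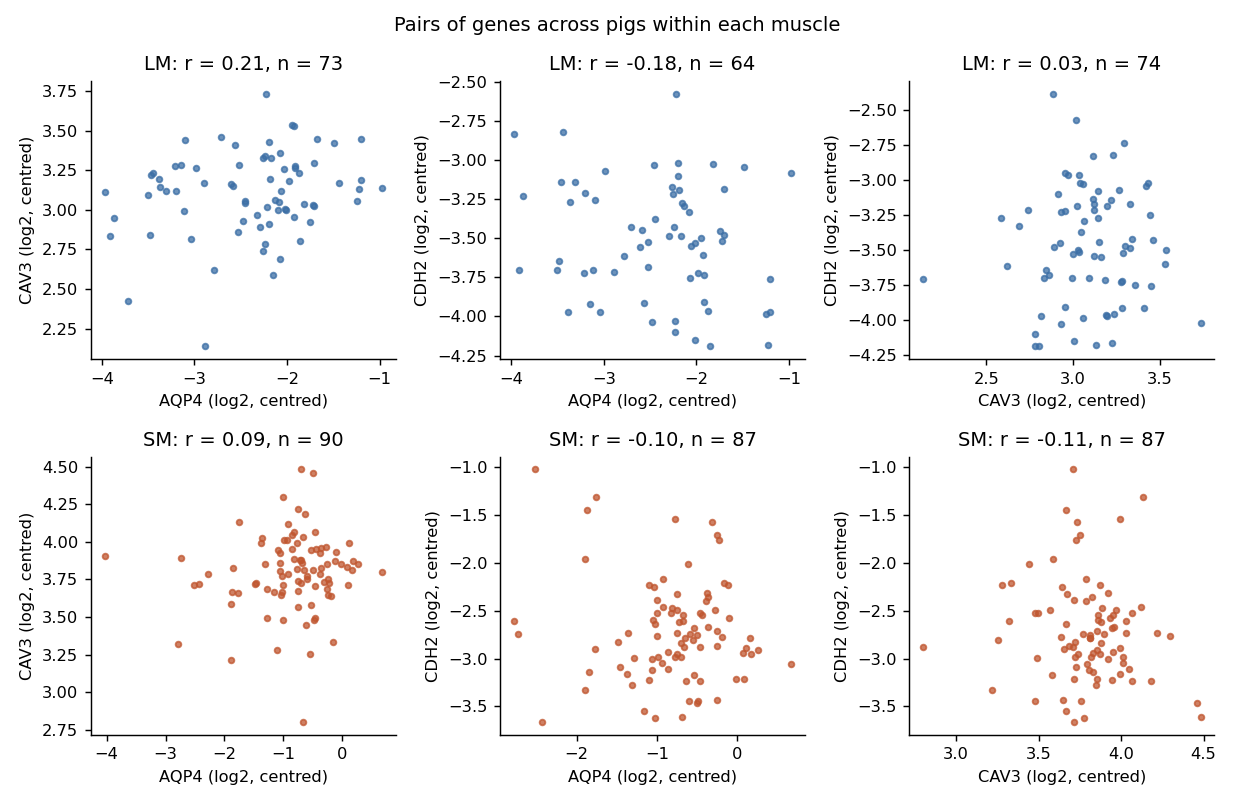
Each pair of genes across pigs, LM in the upper row and SM in the lower row; both axes are centred log2 levels, points are arrays and r is Pearson's. No panel shows a clear slope, and r runs from −0.18 to 0.21.

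The pair AQP4 and CDH2 in SM turned on 2 arrays. These were the SM arrays whose CDH2 values, 0.47 and 0.07, had been removed as outlying, while the same rule kept their AQP4 values. The array with the higher CDH2 also had the lowest AQP4 of all SM arrays, −4.03, and the other had a rank of 6 from the lowest, −2.28, while their CAV3 levels, 3.91 and 3.79, lay near the SM median of 3.81. With the 2 CDH2 values kept, r was −0.38 (adjusted p = 0.00522 by permutation), against −0.10 without them. On the first array CDH2 lay 3.24 above and AQP4 3.30 below the SM median of its probe, the second largest deviation among 10896 features in each direction, and on the second array CDH2, 2.84 above, had the largest of 10626. In LM the same pigs had CDH2 levels of −3.02 and −3.64 and AQP4 levels of −2.20 and −3.49, all inside the LM range. Both pigs had the letter in their label.

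The level of a gene in one muscle did not correlate past the threshold with its level in the other muscle of the same pig. For AQP4, r between LM and SM was 0.16 (rho = 0.10, n = 74, adjusted p = 0.187 by permutation), for CAV3 −0.15 (rho = −0.16, n = 89, adjusted p = 0.187 by permutation) and for CDH2 0.22 (rho = 0.20, n = 71, p = 0.0618, adjusted p = 0.185 by permutation). Without the 2 pigs farthest from the LM median, r was 0.21, −0.11 and 0.22. On deviations from chip means, r was −0.00021, −0.04 and 0.21, and none passed (adjusted p = 0.241 to 0.999 by permutation).

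**Figure D3:**
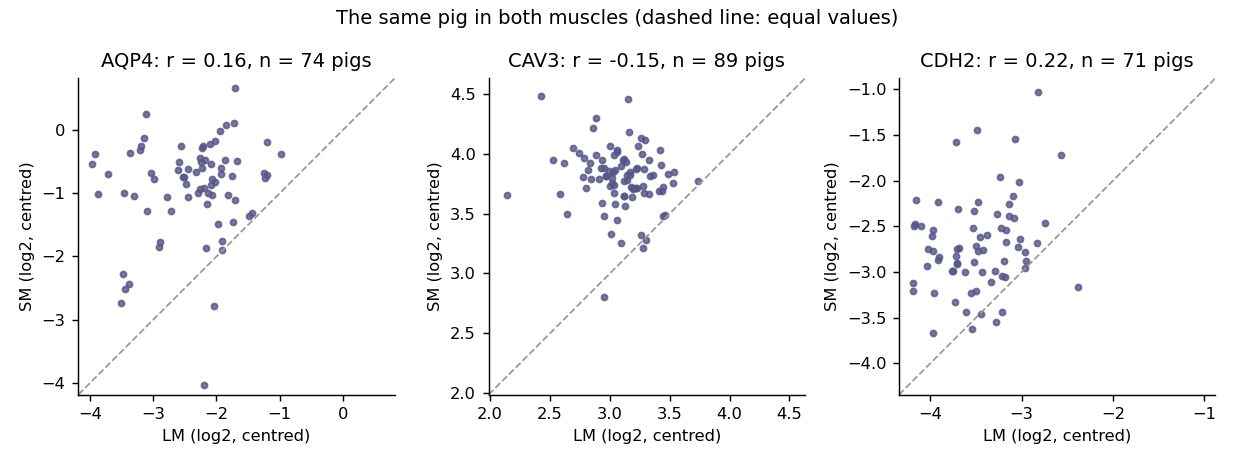
Centred log2 level in LM (horizontal) and SM (vertical) of the same pig for each gene; points are pigs with both values, the dashed line marks equal values and r is Pearson's. Most points lie above the line, and r runs from −0.15 to 0.22.

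The LM minus SM differences of AQP4 and CAV3 did not correlate past the threshold across pigs. Their r was 0.25 (rho = 0.18, n = 73, p = 0.0339, adjusted p = 0.102 over 3 pairs by permutation), and 0.28 on deviations from chip means (n = 72, p = 0.0169, adjusted p = 0.0507 by permutation). Without the 2 pigs farthest from the median of AQP4, r was 0.20. It passed with centring on the 75th percentile (r = 0.29, adjusted p = 0.0432 by permutation), with quantile normalization (r = 0.29, adjusted p = 0.0462) and with the C-rich index fitted beside it (r = 0.30, adjusted p = 0.0263). Among the pigs with a number only, r was 0.11 (adjusted p = 0.418 by permutation). Differences of AQP4 and CDH2 had r = 0.05 (n = 61, adjusted p = 0.723 by permutation), and those of CAV3 and CDH2 had r = −0.15 (n = 71, adjusted p = 0.321 by permutation). With normexp background correction both passed, at r = 0.34 (adjusted p = 0.0127 by permutation) and r = −0.41 (adjusted p = 0.00138).

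Some marker lists moved across pigs with these genes, and the correlations of the genes were not compared with each other. CDH2 went with the leucocyte list in both muscles and with a collagen gene in SM. AQP4 went with the slow fibre list and against the leucocyte list in SM, and CAV3 with the fast fibre list in SM. Correlations of each gene with the mean of each marker list were tested within each muscle, 48 in all, and those described next passed both on the values and on deviations from chip means. CDH2 rose with the leucocyte list in both muscles. In LM, r was 0.48 (rho = 0.49, n = 74, adjusted p = 0.00192 by permutation) and 0.41 on deviations from chip means (n = 73, adjusted p = 0.0253 by permutation within chips). In SM, r was 0.41 (rho = 0.38, n = 87, adjusted p = 0.00312 by permutation) and 0.42 on deviations from chip means (n = 87, adjusted p = 0.0084 by permutation within chips). Without the 2 arrays farthest from the median of the list, r was 0.51 in LM and 0.38 in SM. Among the pigs with a number only, r was 0.49 in LM (n = 56) and 0.45 in SM (n = 68), both with an adjusted p of 0.00384 by permutation. Of its 4 genes, C1QC, a complement subunit made by macrophages, had r = 0.42 with CDH2 in LM and 0.38 in SM, CD14, a receptor of monocytes, had 0.29 and 0.45, and PTPRC, the CD45 antigen of leucocytes, had 0.26 and 0.35. CD68, a lysosomal protein of macrophages and the list's only gene higher in LM, had 0.38 in LM and −0.06 in SM. On deviations from chip means in LM, CD68 had 0.09, while C1QC, CD14 and PTPRC had 0.40, 0.34 and 0.33.

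CDH2 also rose in SM with COL1A2, a chain of type I collagen. For the mean of the 2 probes of COL1A2, r was 0.33 (rho = 0.32, n = 86, adjusted p = 0.018 by permutation) and 0.32 on deviations from chip means (adjusted p = 0.0347 by permutation within chips). Pigs with a number only gave r = 0.38 (n = 67, adjusted p = 0.0178 by permutation), and those with the letter 0.09 (n = 19). In LM r was 0.02 over the pigs with both muscles, where SM had 0.31, and the difference between the muscles did not pass (n = 70, p = 0.0641, adjusted p = 0.443 by permutation).

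AQP4 rose with the slow fibre list in SM. Its r was 0.38 (rho = 0.30, n = 90, adjusted p = 0.00464 by permutation) and 0.43 on deviations from chip means (rho = 0.41, adjusted p = 0.0084 by permutation within chips), and 0.24 without the 2 arrays farthest from the median of the list. Although the pigs with the letter had low AQP4, r was 0.43 among the pigs with a number only (n = 69, adjusted p = 0.00464 by permutation) and 0.63 among those with the letter (n = 21). All 4 genes of the list had a positive r with AQP4 in SM, MYL2, a slow myosin light chain, with 0.31, TNNI1, slow troponin I, with 0.24, ATP2A2, the slow calcium pump, with 0.26, and MB with 0.39. In LM, r with the list was −0.02. The difference between the muscles had p = 0.0178 but did not pass over the 24 combinations of gene and list (n = 74, adjusted p = 0.397 by permutation). With the fast fibre list AQP4 had r = −0.03 in SM and 0.08 in LM, with adjusted p values of 0.918 and 0.695 by permutation.

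AQP4 fell as the leucocyte list rose in SM, with r = −0.28 (rho = −0.25, n = 90, adjusted p = 0.0419 by permutation) and −0.34 on deviations from chip means (adjusted p = 0.0119 by permutation within chips). Its rank correlation did not pass on the values (adjusted p = 0.146 by permutation) but did within chips (rho = −0.35, adjusted p = 0.0187), and r was −0.19 without the 2 arrays farthest from the median of the list. In LM r was −0.29 (n = 74, p = 0.0105, adjusted p = 0.0504 by permutation), and the difference between the muscles did not pass (adjusted p = 0.976 by permutation). With the C-rich index fitted beside it, the SM value was −0.24 and no longer passed (adjusted p = 0.109 by permutation). The same holds among the pigs with a number only, with r = −0.24 (n = 69, adjusted p = 0.243 by permutation). AQP4 and CDH2 thus had opposite signs against this list in both muscles.

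CAV3 rose with the fast fibre list in SM, with r = 0.35 (rho = 0.22, n = 90, adjusted p = 0.0114 by permutation) and 0.40 on deviations from chip means (adjusted p = 0.0119 by permutation within chips). It rested in part on the extremes, since r was 0.15 without the 2 arrays farthest from the median of the list, and its rank correlation did not pass on the values (adjusted p = 0.211 by permutation) but did within chips (rho = 0.36, adjusted p = 0.0155). In pigs with a number only, r was 0.26 and did not pass (n = 69, adjusted p = 0.212 by permutation). PVALB, parvalbumin, a calcium buffer of fast fibres, had r = 0.38 with CAV3 in SM, MYH1 had 0.21 and MYL1, a fast light chain, had −0.07. PVALB weighs most in the list mean, with an SD of 0.96 over SM arrays against 0.19 for MYH1 and 0.36 for MYL1. In LM, r with the list was 0.17, and the difference between the muscles did not pass (p = 0.414, adjusted p = 0.662 by permutation). Such values were not limited to fast fibre genes. The 2 probes of ACTA2, a smooth muscle marker, had r = 0.47 and 0.24 with CAV3 in SM, and 0.63 and 0.48 on deviations from chip means. MYH11, TAGLN and MYL9 of the same list had 0.05, 0.02 and 0.15 in SM. The smooth muscle list as a whole did not pass in SM (r = 0.15, adjusted p = 0.435 by permutation).

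Correlations of AQP4 with the endothelial list in LM (r = 0.34, adjusted p = 0.0225), of CAV3 with nerve and glia in SM (r = 0.29, adjusted p = 0.0361) and of CAV3 with COL1A2 in LM (r = 0.30, adjusted p = 0.0361, all by permutation) passed on the values but not on deviations from chip means. Within the endothelial list VWF, the von Willebrand factor, had r = 0.49 with AQP4 in LM and 0.19 in SM. CD34, a marker of endothelium and of some progenitors, had 0.26 and 0.47. The other named genes of the list had lower values, CDH5 with 0.18 in LM and 0.13 in SM, and PLVAP with 0.04 and −0.23.

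**Figure D4:**
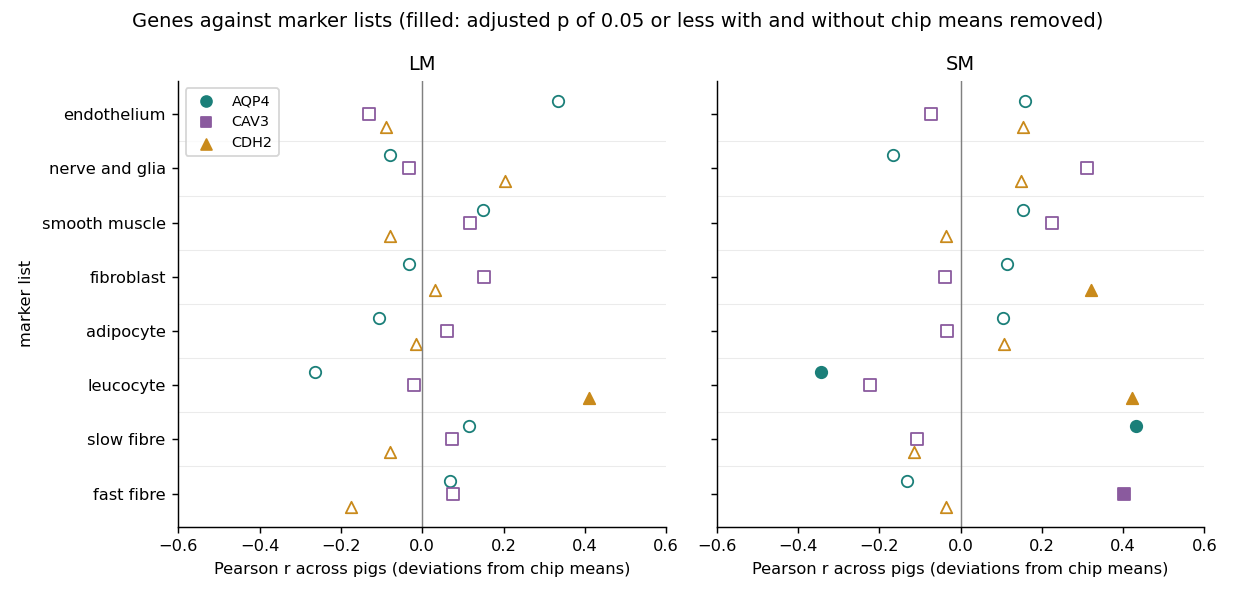
Pearson r across pigs between each gene and the mean of each marker list, on deviations from chip means, in LM (left) and SM (right); circles are AQP4, squares CAV3 and triangles CDH2, and filled symbols passed an adjusted p of 0.05 both with and without chip means removed. CDH2 lies at 0.41 and 0.42 against the leucocyte list, and AQP4 at 0.43 against the slow fibre list in SM.

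The named features most like each gene were sought over deviations from chip means of both muscles together, with at least 120 arrays in common. Each r is among the highest of 10616 to 10828 compared and is given as a description. AQP4 was closest to ETFB, a mitochondrial electron carrier subunit (r = 0.57, n = 159), EPAS1, the hypoxia factor HIF-2 alpha (r = 0.56), ASS1, an enzyme of arginine synthesis (r = 0.53), MUM1L1 (r = 0.52) and PDGFB, a growth factor of vessels (r = 0.52). All 5 had r above 0.45 in each muscle, and 13 features had r above 0.5. In pigs with a number only, their r ran from 0.41 to 0.52. MUM1L1 was the only one with a higher mean in LM, so likeness across pigs did not require the same side between the muscles.

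CAV3 was closest to CTRB2, a chymotrypsinogen (r = 0.58, n = 169), RPS15A, a ribosomal protein (r = 0.56), FAM98C (r = 0.55), PPP2R4, an activator of protein phosphatase 2A (r = 0.54), and APLP2, an amyloid precursor-like protein (r = 0.54), and 43 features had r above 0.5. This order depended on the chips, and on deviations from muscle means only 1 of the 5 stayed among the 5 closest, with MYOZ3, a protein of the Z-disc of fast fibres, among those that entered. CAV3 also fell as the array's median signal rose, with r = −0.41 in LM and −0.33 in SM, against −0.17 and −0.19 for AQP4, and the part of this in its correlations was not tested. With the C-rich index, CAV3 had r = 0.0043 in LM and 0.27 in SM, and AQP4 had 0.03 and −0.23. The CAV3 probe is itself 1 of the 215 probes on the C-rich side of that index.

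CDH2 was closest to CD53, a tetraspanin of leucocytes (r = 0.49, n = 154), KDELC2 (r = 0.48), CCL23, a chemokine that attracts leucocytes (r = 0.47, n = 124), TIMP1, an inhibitor of matrix proteases (r = 0.47), and C13ORF33 (r = 0.45), and no feature had r above 0.5. Among the pigs with a number only, their r ran from 0.48 to 0.55. The likeness was weaker in LM, where CCL23 had r = −0.04 and TIMP1 0.29, than in SM, where they had 0.58 and 0.52. That difference was not tested. On the same scale AQP4 and CAV3 had r = 0.12, with CAV3 at rank 2940 of 10677 in the list of AQP4. CDH2 had r = −0.14 with AQP4 and −0.08 with CAV3.

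**Figure D5:**
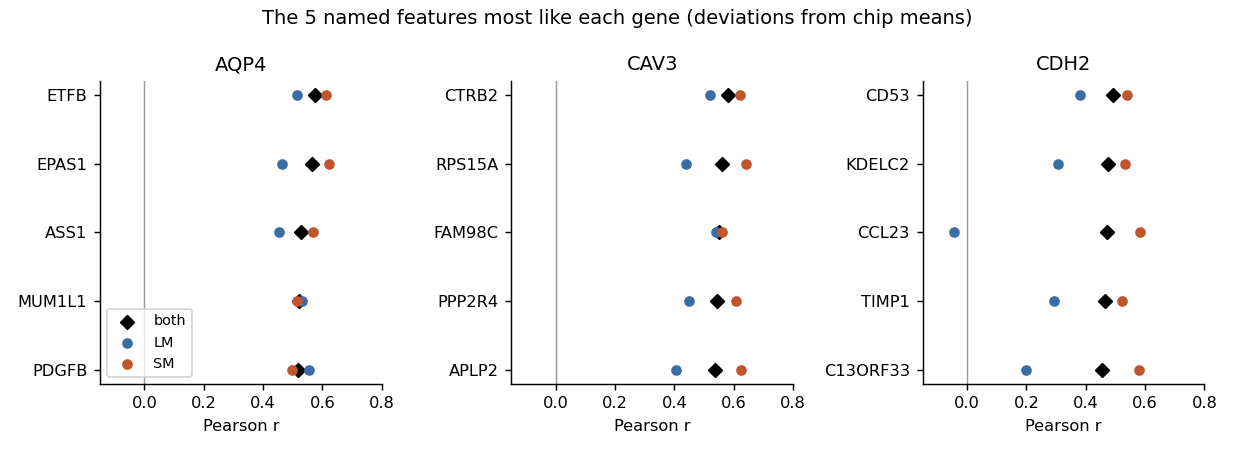
Pearson r of AQP4, CAV3 and CDH2 with the 5 named features closest to each, on deviations from chip means; black diamonds are both muscles together, blue circles LM and orange circles SM. For AQP4 and CAV3 both muscles lie above 0.4, and for CDH2 the LM values run from −0.04 to 0.38.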

How the data were processed

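Each array was read by Agilent Feature Extraction 9.5.1.1 (44 LM arrays) or 9.5.3.1 (the rest), and the authors deposited the scanner output, whose processed signal is a background-subtracted intensity on a linear scale not normalized between arrays. A second deposited table, of 6903 probes, holds the natural log of the processed signal minus 1 constant per array.

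Of 15198 probes, those with over 50% of spots not well above background, non-uniform or saturated in either muscle were left out. Intensities were put on the log2 scale, the array median was subtracted, failed spots and values over 3 SD from the probe mean were set to missing, and 10987 probes were kept. Probe names come from the study's lists of called probes, 1 of which, that of probes higher in SM, was held in part. Muscles were compared with lmFit and eBayes of limma 3.58.1 (R 4.3.3, statmod 1.5.0) with Benjamini-Hochberg adjustment, and the threshold for a call was an adjusted p of 0.05. Sex, batches and carcass weight, which the study fitted, do not appear in the labels and were left out. Correlations and spreads used two-sided permutation tests with 100000 permutations (Python 3.11.15, NumPy 2.4.6, pandas 2.3.3, SciPy 1.17.1, matplotlib 3.10.9). A list's level is the mean of its genes' values, each centred over all arrays but not scaled, so a gene with a wider spread weighs more. Scripts were tested on simulated data.

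Named were the 3 genes, the 5 named probes with the highest r to each, and up to 4 genes a list in the order of the list. Some genes of the lists are not reported here by name. The genes and lists were chosen with earlier results of these data known. Replicate numbers pair the muscles because a number is 1 pig, and across 3575 features the LM and SM deviations of a pig had a median r of 0.08 (71 of 90 pigs above 0). With other pigs the median r was −0.01. Only 39 pigs had an r above 0.1 with themselves, and for 4 of 90 the own pig was the best match, so these values are weak evidence for the pairing. Precision is limited by how many arrays there are. Alternatives changed the centring, normalization, background correction, spot and outlier filters, source table, C-rich covariate, the pig, chip or scan day as a block, and, chosen after the data were seen, the software version and the form of the pig's label. Not every result went through every alternative. Marker list correlations were repeated on deviations from chip means. Those that passed were also repeated with failed spots kept, with the C-rich index and by the form of the label.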

Additional observations from a re-analysis of the deposited data

How the results depend on the processing

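The differences between the muscles kept their sign and their call under all 13 alternatives for each gene, from −2.05 to −1.01 for AQP4, −0.84 to −0.62 for CAV3 and −1.27 to −0.48 for CDH2. With the pig as a replicate block they were −1.48, −0.71 and −0.78, and the block changed no call. With the arrays of 1 software version they were −1.56, −0.68 and −0.82, and with the pigs labelled by a number only −1.75, −0.76 and −0.76, both chosen after the data were seen.

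Normexp background correction gave, within LM, −0.10 for AQP4 and CAV3, 0.40 (adjusted p = 0.00882 by permutation) for AQP4 and CDH2 and −0.35 (adjusted p = 0.00882) for CAV3 and CDH2, and within SM −0.082, 0.058 and −0.30 (adjusted p = 0.0131). Under it, differences of AQP4 and CDH2 had r = 0.34 (adjusted p = 0.0127) and those of CAV3 and CDH2 −0.41 (adjusted p = 0.00138). The cause was not tested. CAV3 and CDH2 in LM turned to −0.056 with failed spots kept and −0.012 with the deposited table. AQP4 and CDH2 in SM went to −0.38 with outlying values kept, and AQP4 and CAV3 in SM to −0.011 within label forms. The correlation of AQP4 between muscles was −0.00021 on chip deviations. Differences of AQP4 and CAV3 passed at 0.29 (75th percentile), 0.29 (quantile) and 0.30 (C-rich index). Differences of AQP4 and CDH2 turned to −0.094 (failed spots kept), −0.21 (outlying values kept), −0.021 (deposited table) and −0.17 (chip deviations).

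The log2 ratio of SDs turned for AQP4 to 0.14 (quantile), 0.54 (failed spots kept, passing at adjusted p = 0.0272 by permutation), 0.77 (deposited table, passing at adjusted p = 0.00018), 0.033 (within label forms) and 0.46 (pigs with a number only), for CAV3 to −0.17 (normexp) and −0.18 (chip deviations), and for CDH2 to 0.056 (quantile) and 0.015 (normexp), and passed at −0.61 on chip deviations. Subtracting chip means lowers the SD of LM, with fewer arrays on a chip, more than that of SM, so nothing is read from that pass. The share of CAV3 between LM chips was 31.8% with quantile normalization and no longer passed.

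Marker correlations that no longer passed were, on chip deviations, 0.33 (AQP4, endothelium, LM), 0.31 (CAV3, nerve and glia, SM) and 0.15 (CAV3, COL1A2, LM), with the C-rich index 0.14 (CAV3, nerve and glia, SM) and −0.24 (AQP4, leucocyte, SM), within label forms 0.26 (CAV3, nerve and glia, SM) and 0.28 (CAV3, COL1A2, LM), and in pigs with a number only 0.27 (AQP4, endothelium, LM), 0.32 (CAV3, nerve and glia, SM), 0.30 (CAV3, COL1A2, LM), −0.24 (AQP4, leucocyte, SM) and 0.26 (CAV3, fast fibre, SM). Those that changed sign on chip deviations, none past the threshold, were −0.079 (AQP4, nerve and glia), −0.033 (CAV3, nerve and glia), −0.079 (CDH2, smooth muscle), −0.015 (CDH2, adipocyte), −0.019 (CAV3, leucocyte) and 0.11 (AQP4, slow fibre), all in LM. For AQP4 and CDH2 in LM, signal near background limits what can be read. Marker correlations were not run with other centring, quantile normalization, the deposited table or outlying values kept. Nor were they run with normexp background correction, which turned correlations of CDH2 with the other genes in LM.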

Other observations

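The 2 SM arrays with the highest CDH2 were compared with the SM median of every feature, a comparison chosen after their values were seen. The deviations had an SD of 0.46 and 0.43 on the log2 scale, the seventh and the ninth highest of the 90 SM arrays, against a median of 0.35. On the array with the highest CDH2 and the lowest AQP4, the named features farthest above the median were HSPA4, a chaperone (4.34), MX1 and OAS1, genes known for their induction by interferon (3.15 and 3.00), SPP1, osteopontin (2.76), C11ORF96 (2.71), PLAC8 (2.64), ANKRD1, a stress-responsive ankyrin repeat protein of muscle (2.60), and SOCS3, an inhibitor of cytokine signalling (2.51). On the other array they were SF1 (2.59), SLC5A10 (2.55), C11ORF96 (2.36), KIFC2 (2.06) and UCK2 (1.98). The arrays shared 13 of the 50 features highest on each and 18 of the 50 lowest on each, among them RPRM (−2.09 and −2.67) and INMT (−1.99 and −1.93). On the leucocyte list the array with the highest CDH2 ranked 44 of 90 and the other ranked 12. Each is 1 array of 1 pig, with no replicate.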
